A study of Mus musculus with 40 samples.

Results

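Ifi203, Ifi206, Ifi209, Ifi213 and Mndal are 5 genes of the interferon-inducible p200 family, and they were followed here through 24 RNA-seq libraries of mouse CD4+ T cells. They were taken by symbol from the 21950 genes of the expression table and were chosen by a measured value, the fall of Ifi203 when iTregs are restimulated, so the values of that contrast are given below as a description, with no test for any of the 5 genes. The libraries form 8 groups of 3: resting Tconvs, activated Tconvs, resting tTregs, activated tTregs, resting iTregs, restimulated iTregs, iTregs restimulated with an ORAI inhibitor and iTregs restimulated with CsA. The mice were of the C57BL/6 background and carried a Foxp3 fluorescent reporter, and the T cells came from spleen. Tconvs and tTregs (CD4+ Foxp3-GFP+) were sorted from animals of 2 to 4 months. iTregs were made in culture from naive CD4+ Foxp3- CD62L hi CD44 lo cells of animals of 6 weeks, by 4 days of plate-bound anti-CD3 and anti-CD28 with 2 ng/ml TGF-β and IL-2, sorted on the reporter, rested for 1 day in IL-2 and then, for the last 3 groups, stimulated again through CD3 and CD28. The labels name the inhibitor only as an ORAI inhibitor, and the study's text names CM-4620 for these cells. CsA is cyclosporin A, which blocks calcineurin. How long the cells of these libraries had been activated or restimulated, and whether replicates came from separate mice or cultures, is not given in the sources used here, so p-values measure the spread between these samples.

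The p200 family, also called PYHIN or HIN-200, encodes proteins that bind DNA through a HIN domain, and many of them carry a pyrin domain as well. Interferons induce many of its genes, and Aim2, the best known member, senses DNA in the cytosol and assembles an inflammasome through Pycard and caspase-1. In the mouse the genes lie side by side on one chromosome in an expanded cluster, and Ifi206, Ifi209 and Ifi213 have been studied far less than Aim2 or Ifi204. ORAI channels carry the calcium that enters T cells when their stores empty after antigen receptor triggering, and calcineurin then acts on NFAT, so both drugs act on one signalling route.

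Values are normalized counts, that is gene counts divided by 1 size factor per library. The libraries held from 5256800 to 15685200 reads on genes, and 3 reads, taken as the floor of detection, were worth 2.12 to 5.45 normalized counts. Foxp3 followed the labels, with means of 10.4 and 33.8 normalized counts in Tconvs at rest and after activation. It averaged 7537 and 7312 in tTregs likewise and 1280 in iTregs at rest, and fell on iTreg restimulation by 0.85 in log2. Il2ra, another Treg marker, rose by 6.74 in log2 on Tconv activation. The 3 Treg markers summed to between 4444 and 4624 in activated Tconvs and between 242 and 249 in resting Tconvs. In every tTreg and iTreg library the sum was 10225 or more. The group means of Cd4 lay between 3859 and 8765. Markers of other cells were present at levels that differed between groups. In resting Tconvs the 6 myeloid markers summed to between 75.1 and 97.5 normalized counts per library, mostly from Fcgr3, against 1.03 to 11.7 in the other 21 libraries. Their NK markers likewise summed to between 19.3 and 30.9, against at most 3.54 elsewhere. The 5 B cell markers summed to between 131.5 and 138.8 in resting tTregs and between 89.0 and 135.3 in activated tTregs, mostly from Cd79b, against 16.8 to 44.3 in the other groups, while Ms4a1 was at 0 in all 24 libraries. The CD8 markers summed to between 99.0 and 236 per library, nearly all from Cd8b1, with the highest values in resting Tconvs.

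The 5 genes lie on chromosome 1 within 474.188 kb (GRCm38, 173468485 to 173942672). Ifi206 (ENSMUSG00000037849.8) spans 173468485 to 173491041, Ifi213 (ENSMUSG00000073491.11) 173566283 to 173599274, Ifi209 (ENSMUSG00000043263.13) 173630917 to 173647928, Mndal (ENSMUSG00000090272.8) 173849126 to 173942491 and Ifi203 (ENSMUSG00000039997.16) 173920407 to 173942672. Only Ifi209 is on the plus strand. The exons of Ifi203 and Mndal overlap by 37 bases on the same strand, which is 0.552% of the exon bases of Ifi203 and 1.02% of those of Mndal, and 118 exon bases of Mndal lie in Gm38050. The genes also resemble each other: of all words of 100 bases in their transcripts, 16.9% in Ifi209 and 13.1% in Ifi206 occur in another gene, against 6.38% in Mndal, 3.30% in Ifi213 and 2.84% in Ifi203. The main partner of Ifi209 is Ifi214, and that of Ifi206 and Ifi213 is Ifi208. With words of 50 bases the shares were 33.75% in Ifi209, 25.6% in Ifi206, 19.55% in Mndal, 15.6% in Ifi213 and 12.2% in Ifi203. Reads in those stretches were shared out by the counting program, so the levels of Ifi206 and Ifi209 are the least certain. Those of Mndal, Ifi213 and Ifi203 carry the same limit to a smaller degree.

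The promoters are shown because a short sequence is found in a promoter of each of the 5 genes. In the RefSeq promoters of GRCm38.p6, which run from 250 bases before to 50 after the start, all 5 genes were matched, Ifi203 and Mndal with 2 promoters each. The longest sequence common to a promoter of each, found by a search of the sequences themselves, is AAATCGAAAG, printed in capitals below with 24 bases on each side, 5′ to 3′ along the gene's strand.
Ifi203, chr1:173942493-173942550, minus strand: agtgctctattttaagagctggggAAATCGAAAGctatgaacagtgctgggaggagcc
Mndal, chr1:173880189-173880246, minus strand: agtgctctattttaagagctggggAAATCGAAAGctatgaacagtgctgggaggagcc
Ifi206, chr1:173491324-173491381, minus strand: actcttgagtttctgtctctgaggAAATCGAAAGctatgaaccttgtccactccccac
Ifi213, chr1:173599311-173599368, minus strand: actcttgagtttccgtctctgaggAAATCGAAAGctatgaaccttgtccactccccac
Ifi209, chr1:173630757-173630814, plus strand: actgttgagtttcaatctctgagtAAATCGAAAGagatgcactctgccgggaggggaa
Ifi208, chr1:173673584-173673641, plus strand: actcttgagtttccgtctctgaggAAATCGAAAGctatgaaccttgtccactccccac
Ifi214, chr1:173536002-173536059, minus strand: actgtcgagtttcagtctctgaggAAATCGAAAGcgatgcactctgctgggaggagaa

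The last pair are the other p200 genes that hold it. Of 32851 promoters 12 contain the sequence on either strand, or 0.0365%. These include a promoter of each of the 5 genes, which the search itself required, and those of Ifi208 and Ifi214. It starts 34 bases before the RefSeq transcription start in Ifi203, 35 in Mndal, 39 in Ifi206, 72 in Ifi213 and 78 in Ifi209. For Mndal that start is at 173880187, whereas its GENCODE span on the minus strand reaches 173942491, inside that of Ifi203. Transcripts of Mndal counted here can therefore start elsewhere. The windows of Ifi203 and Mndal are identical, as are those of Ifi208 and Ifi213. Over the whole promoter Ifi203 and Mndal were 90.7% identical, Ifi208 and Ifi213 89.5%, Ifi206 and Ifi213 78.7% and Ifi209 and Ifi214 95.4%, whereas Ifi203 and Ifi213 shared 51.5%. The promoters of the 5 genes thus fall into 3 sequence types. The pair of interferon half-sites GAAANNGAA, part of the promoter element through which interferons act, overlaps the common sequence in Ifi203, Mndal, Ifi206 and Ifi213 and was not matched in Ifi209, and 8.56% of all promoters hold it on either strand. The NFAT core GGAAAA, held by 23.4% of promoters on either strand, was not matched in a promoter of the 5 genes. These matches describe letters in a window and no binding, and a link between promoter sequence and RNA level was not tested.

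**Figure D1:**
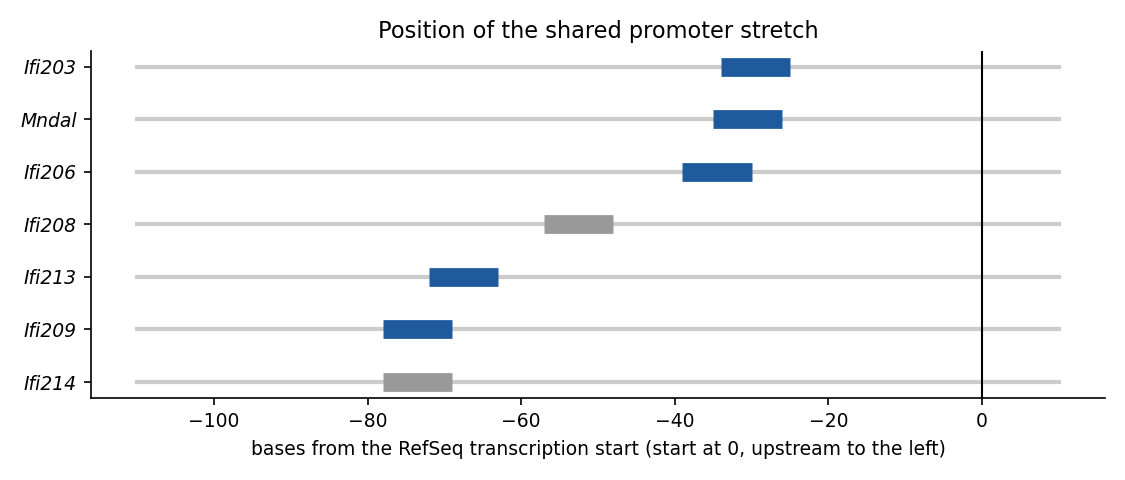
Position of the common 10-base sequence in 7 p200 promoters. Blue bars are the 5 genes followed here, grey bars are Ifi208 and Ifi214, and the x axis gives bases from the RefSeq start. The bars lie between 78 and 25 bases before the start, nearest in Ifi203, Mndal and Ifi206.

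The mean level of each of the 5 genes was highest in resting Tconvs and lowest in iTregs, although the Mndal libraries of resting Tconvs and resting tTregs overlapped. Summed over the 5, the level was 12318 ± 474 (SD, n = 3) in resting Tconvs, 6513.5 ± 672 in resting tTregs and 334 ± 53.5 in resting iTregs, with 3869.7 ± 546 in tTregs and 2885 ± 175 in Tconvs after activation. Restimulated iTregs had 50.2 ± 12.3. To set the genes beside each other, levels were divided by kilobases of exon, counted over all annotated transcripts of a gene. On that scale Ifi209 led in resting Tconvs at 1477 ± 68.0 normalized counts, followed by Ifi206 at 530 ± 24.4. Then came Ifi203 at 426 ± 11.9, Mndal at 289 ± 7.81 and Ifi213 at 227 ± 9.28. The order depends on this length, since by counts Ifi203 was above Ifi206, at 2854 against 1618.5. In resting iTregs the order was another one. Mndal led at 33.9 ± 3.13 normalized counts per kilobase, then came Ifi203 at 23.4 ± 3.40 and Ifi209 at 13.5 ± 5.78, while Ifi206 was at 1.83 ± 1.46 and Ifi213 at 0.148 ± 0.256. In bulk RNA, fewer cells that express a gene and less RNA per cell cannot be told apart.

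**Figure D2:**
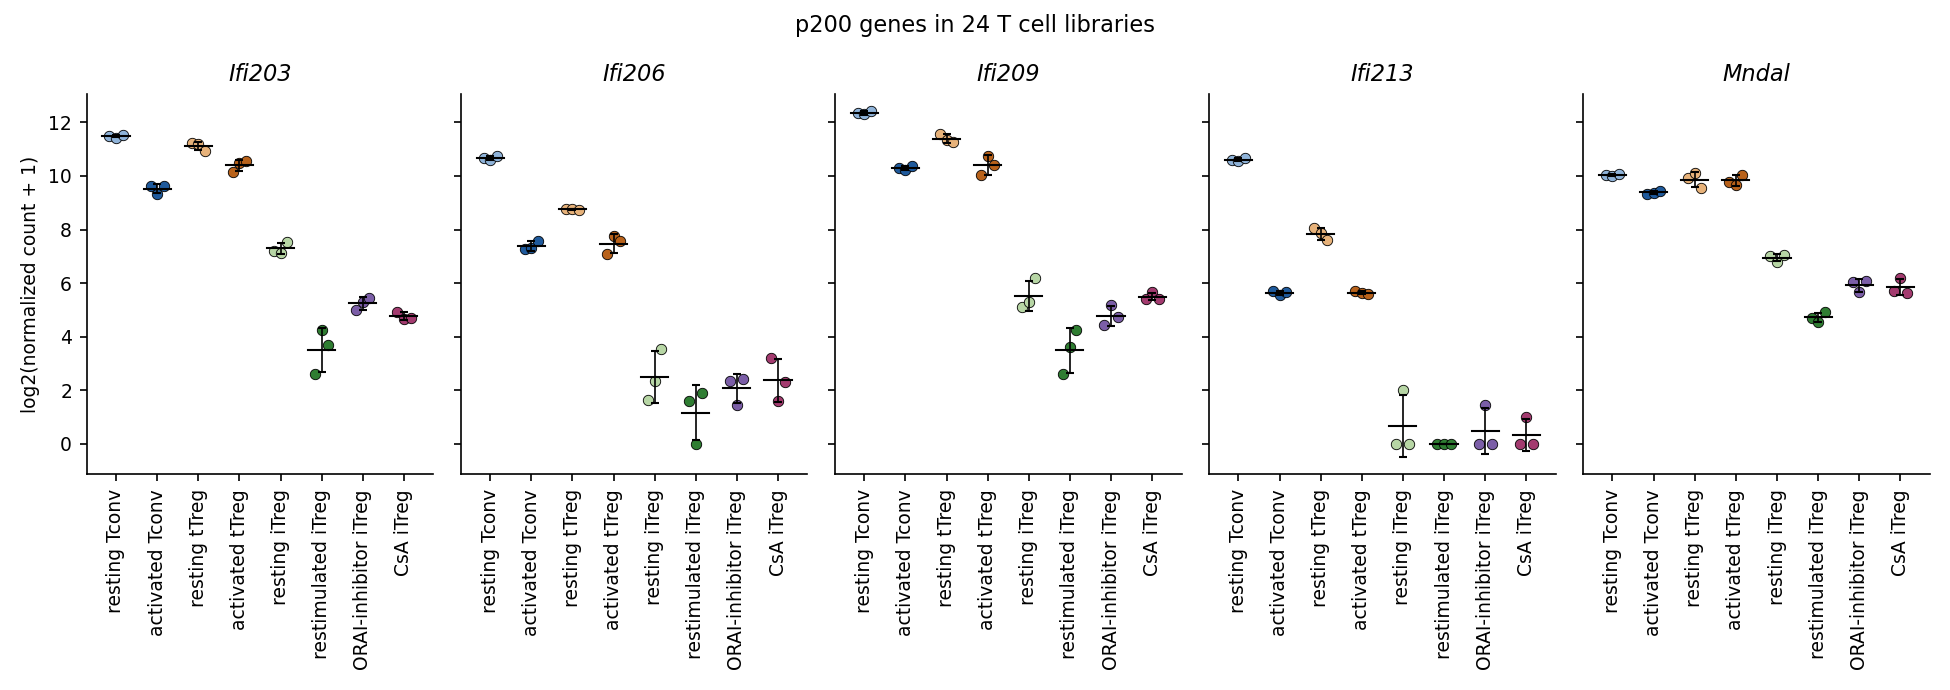
Level of the 5 p200 genes in each of the 24 libraries, as log2(normalized count + 1). Each point is 1 library, the bar is the mean of 3 and the whiskers are the SD. All 5 genes are highest in resting Tconvs and lower in every iTreg library than in any Tconv or tTreg library, and Ifi213 is at or near 0 in all 12 iTreg libraries.

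The first question was how the genes respond when Tconvs are activated. All 5 were lower in activated than in resting Tconvs, with the smallest loss in Mndal and the largest in Ifi213. Ifi213 had 1539, 1501 and 1625 normalized counts in the resting libraries and 51.2, 45.7 and 49.5 in the activated ones. That left 3.14% ± 0.180 of the resting mean, and the log2 fold change was -4.97 ± 0.38 (SE) with an adjusted p of 3.3e-08 in limma. Ifi206 went from 1609, 1549 and 1697 to 154, 156 and 190, which left 10.3% ± 1.27. Its log2 fold change was -3.28 ± 0.33, with an adjusted p of 6.0e-07.

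Ifi209, the most abundant of the 5, measured 5155, 5054 and 5513 at rest and 1271, 1190 and 1326 after activation. It kept 24.1% ± 1.3 of its level, a log2 fold change of -2.05 ± 0.22 with an adjusted p of 1.3e-06. Ifi203 was close to it in proportion. It fell from 2885, 2764 and 2914 to 778, 644 and 793 and kept 25.9% ± 2.87, with a log2 fold change of -1.95 ± 0.13 and an adjusted p of 5.7e-09. Mndal, the neighbour whose annotated span overlaps that of Ifi203, moved least, from 1046, 1023 and 1080 to 646, 666 and 693. It kept 63.7% ± 2.21, and its log2 fold change was -0.65 ± 0.13 with an adjusted p of 0.00042. In each gene the resting and the activated libraries did not overlap.

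A gene was called where its adjusted p was below 0.05 and its log2 fold change was beyond 0.5 in either direction. By this rule all 5 genes were called lower, where 25.7% of the 11495 genes tested did. Their median log2 fold change was -2.05, beside -0.04 over all genes tested. Myeloid, NK and CD8 markers were also highest in resting Tconvs (above), at summed levels of at most 97.5, 30.9 and 236 normalized counts. The mean of Ifi213 went from 1555 to 48.8 in the same comparison, and the part of those markers in the result was not tested.

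In tTregs activation lowered 4 of the 5 genes, in the same order of loss but less deeply. Ifi213 measured 265, 232 and 195 normalized counts in resting tTregs and 51.2, 49.2 and 47.2 in activated tTregs. It kept 21.3% ± 0.855, with a log2 fold change of -2.20 ± 0.38 and an adjusted p of 0.00056 in limma. With a pseudocount of 0.1 in place of 1 the adjusted p was 0.073. Ifi206 fell from 430, 437 and 420 to 135, 215 and 191, which left 42.0% ± 9.58, and its log2 fold change was -1.28 ± 0.33 with an adjusted p of 0.0083. The resting and activated libraries of both genes did not overlap, and the activated libraries of Ifi206 spread more widely than the resting ones.

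Ifi209 went from 3047, 2586 and 2448 to 1038, 1735 and 1348 in tTregs, keeping 51.0% ± 13, and Ifi203 from 2369, 2349 and 1955 to 1138, 1428 and 1491, keeping 60.8% ± 8.47. The log2 fold changes were -1.0 ± 0.22 for Ifi209 and -0.72 ± 0.13 for Ifi203, with adjusted p-values of 0.0033 and 0.00062. Mndal was not called. It measured 964, 1093 and 752 at rest and 881, 813 and 1050 after activation, ranges that overlap, and its log2 fold change was -0.03 with a 95% interval of -0.30 to 0.25. The share of genes called lower in this comparison was 10.0%, and the median log2 fold change was -1.0 over the 5 genes and 0 over all genes tested.

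The difference between the 2 responses was tested as an interaction in the same fit. Each of the 5 genes fell by less in tTregs than in Tconvs. The log2 fold change in tTregs exceeded that in Tconvs by 2.77 ± 0.54 (SE) for Ifi213, 2.00 ± 0.46 for Ifi206, 1.23 ± 0.18 for Ifi203, 1.06 ± 0.31 for Ifi209 and 0.63 ± 0.18 for Mndal. The adjusted p-values were 0.00089, 0.0033, 8.0e-05, 0.015 and 0.013 in the same order, and 17.7% of all genes tested were called in this direction. The call on Ifi213 was lost with a pseudocount of 0.1, where the adjusted p was 0.10, that on Ifi209 with all 24 libraries in one fit, where it was 0.0505, and that on Mndal without resting tTreg replicate 3, where the difference was 0.48 and so below the fold threshold.

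**Figure D3:**
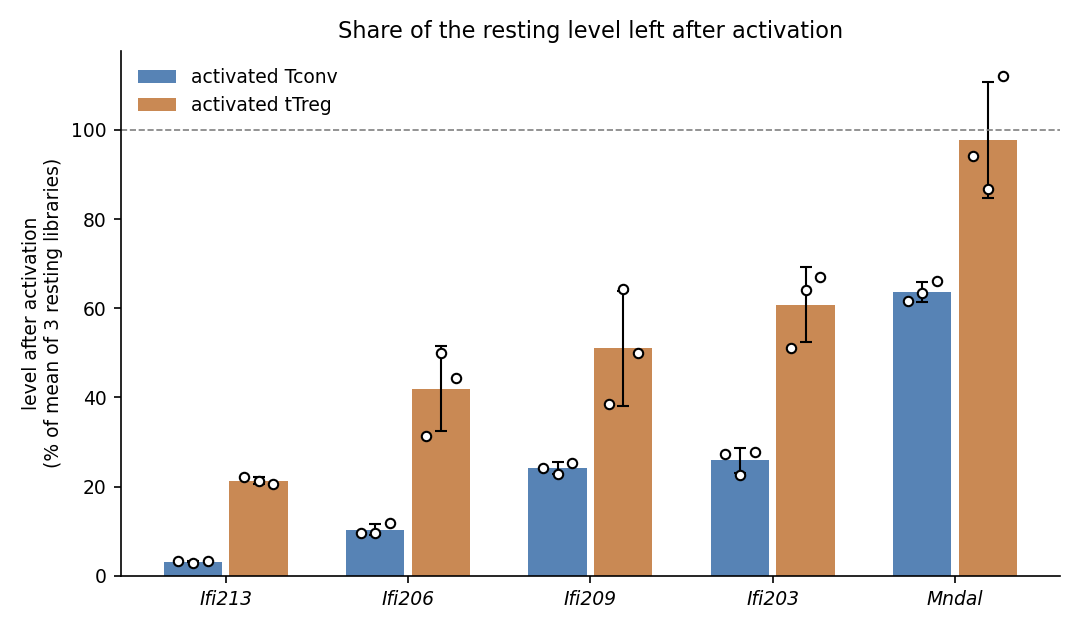
Level after activation as a percentage of the mean of the 3 resting libraries of the same cell type. Bars are means of 3 libraries, points are libraries and whiskers are the SD. Every gene kept a larger share in tTregs than in Tconvs, from 3.14% against 21.3% for Ifi213 to 63.7% against 97.7% for Mndal.

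The starting levels differed as well, and the comparison of resting tTregs with resting Tconvs gives them. Ifi213 in resting tTregs was at 14.8% ± 2.26 of its mean in resting Tconvs, Ifi206 at 26.5% ± 0.527 and Ifi209 at 51.4% ± 5.99. B cell markers, mostly Cd79b, were higher in tTregs (above), and their part in these differences was not tested. The log2 differences were -2.76 ± 0.38, -1.91 ± 0.33 and -0.97 ± 0.22 (SE), with adjusted p-values of 2.5e-05, 0.00020 and 0.0020 in limma. These 3 genes were called lower in tTregs, and 18.2% of all genes tested were. Ifi203 stood at 77.9% ± 8.18 with an adjusted p of 0.025 but a log2 difference of -0.37, inside the fold threshold, although its libraries did not overlap between the groups. Mndal stood at 89.2% ± 16.4 with overlapping libraries and a log2 difference of -0.18, with a 95% interval of -0.45 to 0.09.

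After activation the levels of 3 genes came close together in both cell types. Ifi213 averaged 49.2 ± 1.97 normalized counts in activated tTregs and 48.8 ± 2.80 in activated Tconvs, Ifi206 180 ± 41.1 and 167 ± 20.5, and Ifi209 1374 ± 349 and 1263 ± 68.3. The libraries overlapped in all 3. The 95% intervals of their log2 differences were -0.80 to 0.82, -0.61 to 0.79 and -0.38 to 0.56, so a difference of that size is within the error. For these genes the larger fold change in Tconvs went with a higher resting level. Given these intervals, their activated levels were not shown to be equal. Ifi203 differed, at 1352 ± 188 in activated tTregs against 739 ± 82.0 in activated Tconvs, a log2 difference of 0.87 ± 0.13 with an adjusted p of 3.3e-05. It was the 1 gene of the 5 called, beside 25.6% of all genes tested that were called higher. Mndal was also higher, at 914 ± 122 against 668 ± 23.2, with an adjusted p of 0.0075 and a log2 difference of 0.44 that did not reach the threshold. Without activated tTreg replicate 2 it was 0.52 and was called.

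Resting iTregs were compared with resting Tconvs and resting tTregs to place them among the cell types. The groups differ in more than cell type, because iTregs had been stimulated and cultured for days and came from younger mice, and these differences cannot be told apart. The resting iTreg libraries also belong to the contrast that chose the genes, so Ifi203 is described without a test. All 5 genes were far lower in iTregs. Ifi203 had 148, 140 and 183 normalized counts in resting iTregs, 5.50% ± 0.799 of its resting Tconv mean and 21.2% ± 3.09 of that in activated Tconvs. Mndal had 129, 110 and 131, which was 11.7% ± 1.08 of resting Tconvs, a log2 difference of -3.09 ± 0.13 with an adjusted p of 1.5e-11. These 2 genes kept the largest shares.

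Ifi209, which led in Tconvs, had 33.7, 38.3 and 71.3 normalized counts in resting iTregs. That was 0.912% ± 0.391 of resting Tconvs, 110-fold less, with a log2 difference of -6.82 ± 0.22 and an adjusted p of 1.1e-12. Ifi206 had 2.11, 4.04 and 10.6, from 20 reads in all, or 0.345% ± 0.276. Ifi213 had 3 reads in 1 library and 0 reads in the others. From its reads pooled over the group, its level was 1688 times higher in resting Tconvs and 250.5 times higher in resting tTregs. The 95% counting interval of the 1688-fold ratio is 578 to 8187 and covers counting error only. By group means, the measure used for the other genes, the ratios were 1541 and 229. Against resting tTregs, Mndal was 7.61-fold lower, Ifi203 14.2-fold, Ifi209 56.4-fold and Ifi206 76.8-fold. The 4 genes other than Ifi203 were called lower in both comparisons, in which 30.8% and 31.1% of all genes tested were called lower, and each of the 5 ranked within the lowest 2.77% of log2 differences.

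The order of the genes by how much was left was the same in resting iTregs, relative to resting Tconvs, as after activation of Tconvs: Ifi213 least, then Ifi206, Ifi209, Ifi203 and Mndal. Resting tTregs had the same order relative to resting Tconvs, from 14.8% for Ifi213 to 89.2% for Mndal. All of these comparisons share the resting Tconv libraries.

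Restimulation of iTregs is the contrast by which the genes were picked, and its values are given for description. Ifi203 had 5.04, 17.9 and 11.8 normalized counts in restimulated iTregs, from 34 reads in all, against 148, 140 and 183 at rest, so 7.39% ± 4.11 was left. The log2 fold change of -3.79 ± 0.31 was among the lowest 0.036% of the 11105 genes tested in the 12 iTreg libraries. Mndal fell from 129, 110 and 131 to 25.2, 22.4 and 29.1, leaving 20.8% ± 2.72, and Ifi209 from 33.7, 38.3 and 71.3 to 5.04, 11.2 and 18.2, leaving 24% ± 13.7. The log2 fold changes of these 2 genes were -2.23 ± 0.18 and -2.04 ± 0.37. Ifi206, with 2.01, 0 and 2.72 normalized counts, and Ifi213, with no read in any of the 3 libraries, did not pass the filter of 10 normalized counts in 3 libraries and were not tested. Of all genes tested, 6.13% were called lower, and nothing is read from the 3 members beside it.

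Cells restimulated with either drug had more RNA of the 3 measurable genes than cells restimulated alone. Mndal had 64.3, 49.3 and 65.8 normalized counts with the ORAI inhibitor and 51.1, 71.8 and 48.8 with CsA, all above the 3 restimulated libraries. The log2 differences from restimulation alone were 1.19 ± 0.18 (SE) and 1.12 ± 0.18. Both comparisons use the restimulated libraries of the contrast that chose the genes, so no test of the 3 genes is given. Relative to resting iTregs, 48.6% ± 7.42 and 46.5% ± 10.3 of the level was present.

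Ifi209 had 20.4, 35.2 and 25.4 normalized counts with the ORAI inhibitor and 41.9, 49.3 and 41.6 with CsA, which was 56.5% ± 15.7 and 92.6% ± 9.09 of resting iTregs. With either drug its libraries were above the restimulated ones and overlapped the resting ones. Its log2 difference from restimulation alone was 2.01 ± 0.37 with CsA and 1.29 ± 0.37 with the ORAI inhibitor. Without restimulated iTreg replicate 1 the log2 difference with the ORAI inhibitor was 0.84. The values rest on 35 reads in the restimulated group.

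Ifi203, whose low level in the restimulated libraries chose the genes, had 30.6, 38.7 and 43.0 normalized counts with the ORAI inhibitor. With CsA it had 29.6, 24.6 and 24.8. These were 23.9% ± 4.01 and 16.8% ± 1.82 of resting iTregs. All 6 drug libraries were above the restimulated ones and below the resting ones. Its log2 differences from restimulation alone were 1.75 ± 0.31 and 1.3 ± 0.31. Leaving out restimulated iTreg replicate 1, the lowest, brought that with CsA to 0.81. Both comparisons share the 3 restimulated libraries with the contrast that chose the genes. Of all genes tested 1.50% and 1.57% were called higher in them, and nothing is read from the members beside these shares.

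None of the 3 genes was called between the drugs, in limma, edgeR or DESeq2, and 0 had an unadjusted p under 0.05, while 0.360% of all genes tested were called. The log2 difference of the ORAI inhibitor from CsA was 0.48 for Ifi203 with a 95% interval of -0.19 to 1.15, -0.72 for Ifi209 with an interval of -1.52 to 0.07 and 0.07 for Mndal with an interval of -0.32 to 0.46. The libraries of the 2 drug groups did not overlap in Ifi203, which was higher with the ORAI inhibitor, or in Ifi209, which was higher with CsA. A p that misses the threshold does not show that the drugs act alike, and differences up to these bounds are within the error.

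**Figure D4:**
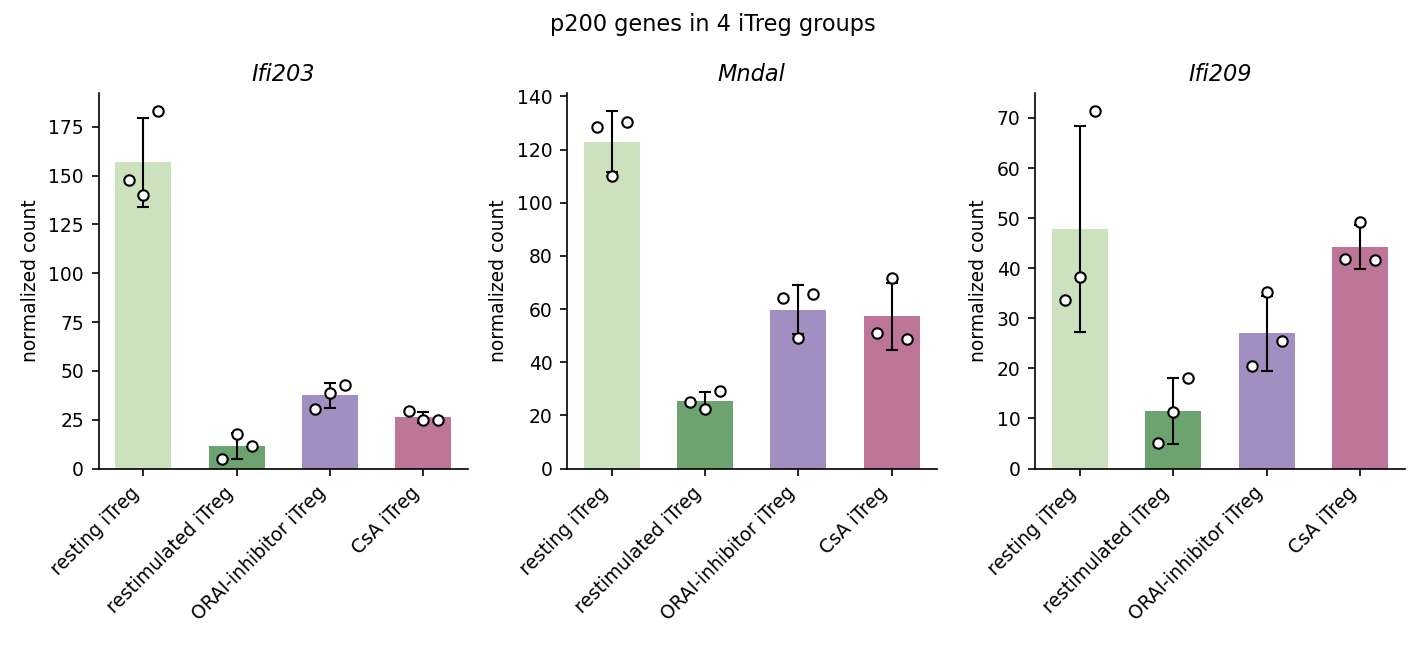
Normalized counts of Ifi203, Mndal and Ifi209 in the 4 iTreg groups. Bars are means of 3 libraries, points are libraries, whiskers are the SD, and each panel has its own y axis from 0. The lowest group is restimulated iTregs in each panel, with means of 11.6, 25.6 and 11.5, and the drug groups lie between it and resting iTregs except in Ifi209, where the libraries of both drugs overlap those at rest.

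The other p200 genes were read from a list of 11, of which 8 are in the table and 3 could be tested in the Tconv and tTreg libraries. Ifi208 and Ifi214 were also called lower on activation of both cell types. Ifi208 went from a mean of 2833 normalized counts in resting Tconvs to 176 after activation, with a log2 fold change of -4.01 ± 0.43 and an adjusted p of 1.1e-06 in limma, and from 534 to 200 in tTregs, with -1.43 ± 0.43 and 0.018. The tTreg call was lost with a pseudocount of 0.1 or without activated tTreg replicate 1, where the adjusted p was 0.27 and 0.071. Ifi214 had means of 883 and 209 in resting and activated Tconvs and of 301 and 106 in the corresponding tTregs, with adjusted p-values of 5.7e-08 and 1.7e-05. In resting iTregs Ifi208 had 5 reads and Ifi214 had 9 reads over the 3 libraries.

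Aim2, the DNA sensor, whose gene lies next to Ifi206, was not called on activation. It had a mean of 132 normalized counts in resting and 113 in activated Tconvs, 153 and 128 in tTregs, and 32.9 and 33.8 in resting and restimulated iTregs. Its log2 fold changes on activation were -0.21 in Tconvs and -0.22 in tTregs, with adjusted p-values of 0.38 and 0.43. It was lower in resting iTregs than in resting Tconvs by a log2 difference of -1.98, with an adjusted p of 3.8e-07. Ifi202b was at 0 in all 24 libraries, and Ifi204, Ifi205, Ifi207 and Ifi211 did not pass the filter.

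Genes of the wider interferon pathway moved in both directions when Tconvs were activated, where 24.5% of all genes tested were called higher and 25.7% lower. Their difference from the p200 genes was not tested. No interferon α, β or λ gene on the list had a read in any library, and Ifng, the ligand that T cells make, had a mean of 4.85 normalized counts in resting and 30.8 in activated Tconvs. Of 5 receptor genes tested 2 rose and 1 fell, and the one that fell was Ifngr1, a chain of the interferon γ receptor, from 8911 to 1253 with a log2 fold change of -2.83 ± 0.07. Of 9 kinases and factors 5 rose and 1 fell. Irf1, a transcription factor that interferons induce, rose from 1611 to 6557, a log2 fold change of 2.02 ± 0.10. All 3 brakes on the pathway rose, among them Socs1 by 2.80 ± 0.25.

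Of 20 other interferon-stimulated genes 19 were tested, and in Tconvs 9 rose, 6 fell and 4 did not pass, with a median log2 fold change of 0.98. The 6 were Oas1a, Oasl2, Rsad2, Samd9l, Ifih1 and Ddx58. Ifit1, an antiviral RNA-binding protein, rose from 172 to 1150.5, or by 2.73 ± 0.21, and Zbp1, a sensor of left-handed nucleic acid, rose by 2.65 ± 0.10. Oasl2 and Samd9l had log2 fold changes of -1.99 ± 0.43 and -1.17 ± 0.18, although Oasl2 lost its call with a pseudocount of 0.1, where the adjusted p was 0.063. In tTregs 1 of the 19 rose and 7 fell, with a median of -0.37, where 11.9% of all genes tested were called higher and 10.0% lower. Ifit1 and Oasl2 fell there by 0.99 and 1.55 on the log2 scale. The Oasl2 call was lost with a pseudocount of 0.1 or without activated tTreg replicate 1. Between the 2 responses, 12 of the 19 had a lower and 2 a higher log2 fold change in tTregs than in Tconvs, Ifit1 by -3.72. For all 5 p200 genes the difference was positive. Its sign depends also on the direction in Tconvs, where the p200 genes fell and Ifit1 rose. Of all genes tested, 17.0% were called lower and 17.7% higher in this difference. Of the 7 DNA-sensing and inflammasome genes tested, 2 rose and 1, Casp1, fell in activated Tconvs.

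**Figure D5:**
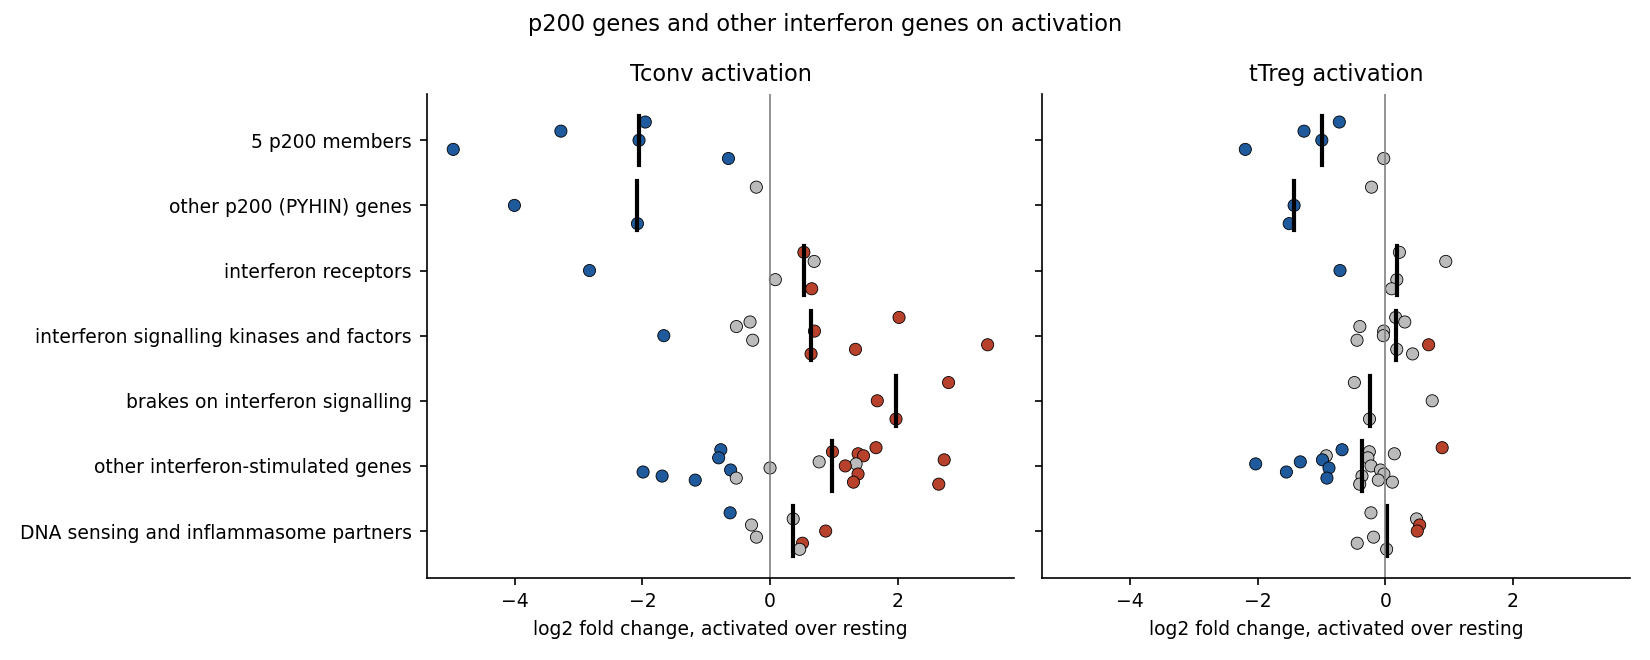
Log2 fold changes on activation of the 5 p200 genes and of the genes of 6 related lists, in Tconvs (left) and tTregs (right). Each point is a gene, red if called higher, blue if called lower and grey if neither, and black bars are list medians. The medians of the 5 p200 genes are -2.05 and -1.0, and those of the other interferon-stimulated genes 0.98 and -0.37.

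In iTregs, on restimulation, 5 of 9 kinases and factors rose, among them Irf1 with a log2 fold change of 0.98 ± 0.07, and of 13 other interferon-stimulated genes that could be tested 3 rose and 2 fell. Of all genes tested 6.70% were called higher and 6.13% lower. The 2 that fell were Isg20, an RNA exonuclease, and Samd9l. Isg20 had a log2 fold change of -2.74 ± 0.15, from a mean of 697 to 107, and Samd9l one of -1.45 ± 0.23. Compared with restimulated iTregs, Isg20 was higher by 0.99 ± 0.15 with the ORAI inhibitor and by 1.20 ± 0.15 with CsA. Samd9l differed by 0.06 ± 0.23 with CsA, with a 95% interval of -0.44 to 0.55. The drug comparisons share the restimulated libraries with the fall for which these genes are named, so no test is given.

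Over the 24 libraries the genes whose log2 level was most like that of each p200 gene were sought among 11724 genes, as a description in which 12 iTreg libraries set low values against 12 others. Txk, a kinase of the T cell receptor pathway, was first for Ifi203 (Pearson's r 0.985), Ifi209 (0.987) and Mndal (0.991). Mndal was second for Ifi203 and Ifi203 ranked 3 for Mndal, at 0.983. For Ifi206 the first was Ifi208, at 0.987. For Ifi213 they were Kdm7a, Gm14085 and Pink1, at 0.992, 0.991 and 0.986. Within the 5 genes r ran from 0.911 between Ifi213 and Mndal to 0.983 between Ifi203 and Mndal. Over the 8 group means the order differed, with 0.993 between Ifi206 and Ifi209 and 0.991 between Ifi203 and Mndal.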

How the data were processed

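RNA-seq libraries were made by the study with a modified SMART-seq2 protocol, which does not keep strand. Per the submitters' processing notes and the methods, reads were trimmed with cutadapt 1.18, aligned to mm10 with STAR 2.5.3 and counted with RSEM 1.3.0 on GENCODE M23, which divides reads that fit several genes by estimation. The values that the authors deposited are a normalized signal, that is counts over 1 size factor per library. Dividing a library by its smallest value above 0 gave whole numbers, within 0.01, for 100% of values. These are called reads here. Since RSEM estimates counts, they are estimates for genes that share sequence with others.

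A gene entered a fit if 3 or more of its libraries had 10 or more normalized counts, which left 11495 genes over the 15 Tconv, tTreg and resting iTreg libraries and 11105 over the 12 iTreg libraries. limma 3.58.1 (R 4.3.3), with a variance trend, was run on log2(value + 1), so the pseudocount was 1. Adjusted p-values are Benjamini-Hochberg values over all genes of a comparison, and a call needed a value under 0.05 with a log2 fold change beyond 0.5 either way. Tests were two-sided. A fold change on log2(value + 1) understates the change of low genes. Alternatives were pseudocounts of 0.1 and 5, quantile normalization, size factors of the fit's own libraries, a filter of 100 or none, only the groups compared, all 24 libraries, a replicate block, each replicate left out, other thresholds, and edgeR 4.0.16 and DESeq2 1.42.0 on the recovered reads. The scripts were tested on simulated data. Positions and lengths are from GENCODE M21, an older release than the authors', and promoters from RefSeq GRCm38.p6. The members and lists, which are the genes named, were chosen with earlier results of these data known. The 16 chromatin samples of the series were not analysed here. Results on some items are not reported here.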

Additional observations from a re-analysis of the deposited data

Results flagged for a closer look

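The response to activation differed between tTregs and Tconvs in each of the 5 p200 genes, by the test of the interaction. The log2 fold change in tTregs minus that in Tconvs was 1.23 for Ifi203, 2.00 for Ifi206, 1.06 for Ifi209, 2.77 for Ifi213 and 0.63 for Mndal. No group was tested for a library that stands apart, since all groups have 3 libraries.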

How the results depend on the processing

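Of 215 recomputed counts of called genes 211 stayed within 1.5 times the reported one. With a log2 fold change above 1 required, 2 of the 5 genes were called on tTreg activation and 0 between activated tTregs and activated Tconvs. With the adjusted p alone 2 were called between activated tTregs and activated Tconvs, and leaving out 1 library gave 1 to 2. Of 825 recomputed log2 fold changes of the 5 genes 793 kept direction and call, 18 lost the call, 1 gained it and 13 changed sign, all 13 from values that had not been called. Ifi213, between activated tTregs and activated Tconvs, was -0.029 with the fit's own size factors, -0.18 with quantile normalization, -0.017 with edgeR and -0.025 with DESeq2, where the reported value was 0.01. Aim2, for the activation response difference, was 0.012 with quantile normalization. The causes were not tested. Ranges on leaving out 1 library that crossed 0 were -0.17 to 0.095 for Mndal and -0.33 to 0.050 for Samd9l on tTreg activation, -0.25 to 0.14 for Aim2 in the response difference and -0.14 to 0.21 on iTreg restimulation, -0.049 to 0.29 for Ifi206, -0.092 to 0.28 for Ifi209 and -0.033 to 0.046 for Ifi213 between activated tTregs and activated Tconvs, and -0.031 to 0.24 for Mndal between the drugs.

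The replicate numbers were not taken to pair the samples, since not every same-numbered pair had a correlation of deviations over 0.1 (10 of 18 pairs in the iTreg fit and 6 of 30 in the other). In the iTreg fit same-numbered libraries had a mean correlation of 0.152, against -0.0754 for other numbers, and the pairs of replicate 3 lay between 0.208 and 0.302, a hint from the data and not from the design. In the other fit the means were -0.007 and 0.00339. The replicate block gave the same count of called genes in all 11 comparisons, 5 of 5 on Tconv activation and 4 of 5 on tTreg activation. Over all genes it moved the calls from 1425 to 1500 on iTreg restimulation, from 366 to 420 with the ORAI inhibitor and from 324 to 372 with CsA. Over all genes tested, restimulation called 1425 genes and 878 with the filter of 100. CsA called 324, 213 with that filter and 187 with all 24 libraries in one fit. The ORAI inhibitor called 366 and 232, and its comparison with CsA 40 and 10, with all 24 libraries. On the recovered reads edgeR called 5798 genes on Tconv activation and 1423 on iTreg restimulation. Quantile normalization moved the median of all genes by more than 0.1 between resting iTregs and resting Tconvs, to -0.12, and resting tTregs, to -0.10. Of the 3 genes named as most like each p200 gene, 0 to 1 recurred by Spearman's rho and 1 to 3 over the 8 group means. Depth limits what can be said of Ifi206 and Ifi213 in iTregs.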
